A study of Mus musculus with 10 samples.

Results

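The solute carriers are the largest superfamily of membrane transport proteins in mammals. They move sugars, amino acids, nucleotides, metal ions, inorganic ions and organic acids across the plasma membrane and the membranes of mitochondria, lysosomes, the Golgi and other organelles, either down a gradient or coupled to the gradient of another ion. Each gene symbol gives the family number and the member (Slc2a1 is member A1 of family 2), and families are defined by sequence and not by substrate. Neutrophils are known for a strong dependence on glucose and glycolysis, for export of lactate and protons, and for control of metals in the phagosome. Solute carriers take part in these processes together with other proteins.

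The genes described here are 173 of the 13091 genes listed in the data. They are the genes whose symbol starts with Slc, a family number and a letter and which were chosen by their expression level, a mean normalized count of at least 100. The pattern matched 206 listed genes, so 84.0% of them reached the minimum, where 78.8% of all listed genes did. Just inside the minimum stood Slc25a53 with a mean normalized count of 101, Slc25a14 with 115 and Slc25a42 with 119. Just outside it stood Slc25a27 with 97.0, Slc36a3 with 95.8 and Slc44a4 with 88.8. Of the 173 genes, 168 are named as carriers and belong to 42 families. The other 5 match the pattern but name no carrier: Slc9a3r1 and Slc9a3r2 encode scaffold proteins that bind transporters, Slc4a1ap and Slc7a6os are named after a carrier they bind or lie beside, and Slc2a4rg-ps is a pseudogene.

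RNA was sequenced from neutrophils differentiated in culture from clonal progenitors that had been immortalized with an estrogen-dependent HoxB8 in mouse bone marrow of the strain given as 129-SVEV. There were 10 libraries in 4 groups: 2 Vim+/+ and 3 Vim-/- libraries of unstimulated cells, and 2 Vim+/+ and 3 Vim-/- libraries of cells after 1 hour with LPS at 25 ng/mL. The labels call the vimentin-negative cells a knockdown, whereas the study derived them from knockout mice. All cells carry the HoxB8 construct, the lines were each expanded from 1 sorted progenitor, and the labels give no age. The expression level available per gene is the authors' mean over the libraries, which is identical in all 4 deposited tables. It pools the genotypes and the unstimulated and LPS-treated cells, and no value per library was used here, so no level below carries an error, sequencing depth is not known library by library, and differences between the groups were not analysed. The mean of Vim itself, the targeted gene on chromosome 2 (13573927 to 13582826), was 39926 normalized counts, and being pooled it cannot check the genotype labels.

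Because a longer transcript collects more reads, levels are compared between genes only after division by length. Unless another length is named, "per kb" below means the mean normalized count per 1000 bases of the longest transcript of the gene in GENCODE M21, and a position is on GRCm38, the assembly also known as mm10. All 173 genes had such a length. The markers of neutrophils were high on this scale: all 14 genes of the list were present, from 11905 per kb for Cxcr2, a chemokine receptor, to 2487149 per kb for S100a9, a calcium-binding protein of neutrophil cytosol. The eosinophil granule genes Prg2 and Epx were high as well, at 320189 and 53096 per kb, while Siglecf, a surface receptor of eosinophils, stood at 1764. Of the mast cell and basophil markers, Cpa3 stood at 18148 and Mcpt8 at 2965 per kb, and Fcer1a had no row. Of the monocyte and macrophage markers, Ly6c2 stood at 9881, Adgre1 at 3111, Csf1r at 695 and Cx3cr1 at 8.59 per kb, and C1qa had no row. Cd79a of B cells stood at 57.5 and Cd3d of T cells at 155 per kb, and the other markers of these cells had no row. None of the 4 erythroid markers was listed. Of the megakaryocyte markers, Itga2b stood at 1897 and Pf4 at 64.8 per kb. Of the endothelial or stromal markers, Pecam1 stood at 6430 and Col1a1 at 71.4 per kb, and Cdh5 and Cxcl12 had no row. In bulk RNA a transcript abundant in few cells and one at a low level in all cells cannot be told apart, and the part of such cells in the carrier levels was not tested.

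As a group the 173 genes were of modest expression. They made up 1.32% of the listed genes and held 0.913% of the sum of all mean normalized counts. Their median was 315 per kb, against 470 per kb for the 9874 genes of known length at the same minimum, a ratio of 0.670. With coding length in place of transcript length the ratio was 0.692, and with the median length of a gene's transcripts it was 0.723. Of the 173 genes, 61 (35.3%) stood above the median of those 9874 genes. The levels were spread widely, from 14.9 per kb for Slc4a8 to 9209 per kb for Slc27a4. The 15 highest genes held 50% or more of the summed level per kb, and the 10 highest held 41.6%. Over 1000 per kb stood 36 of the genes, and under 50 per kb stood 20.

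**Figure D1:**
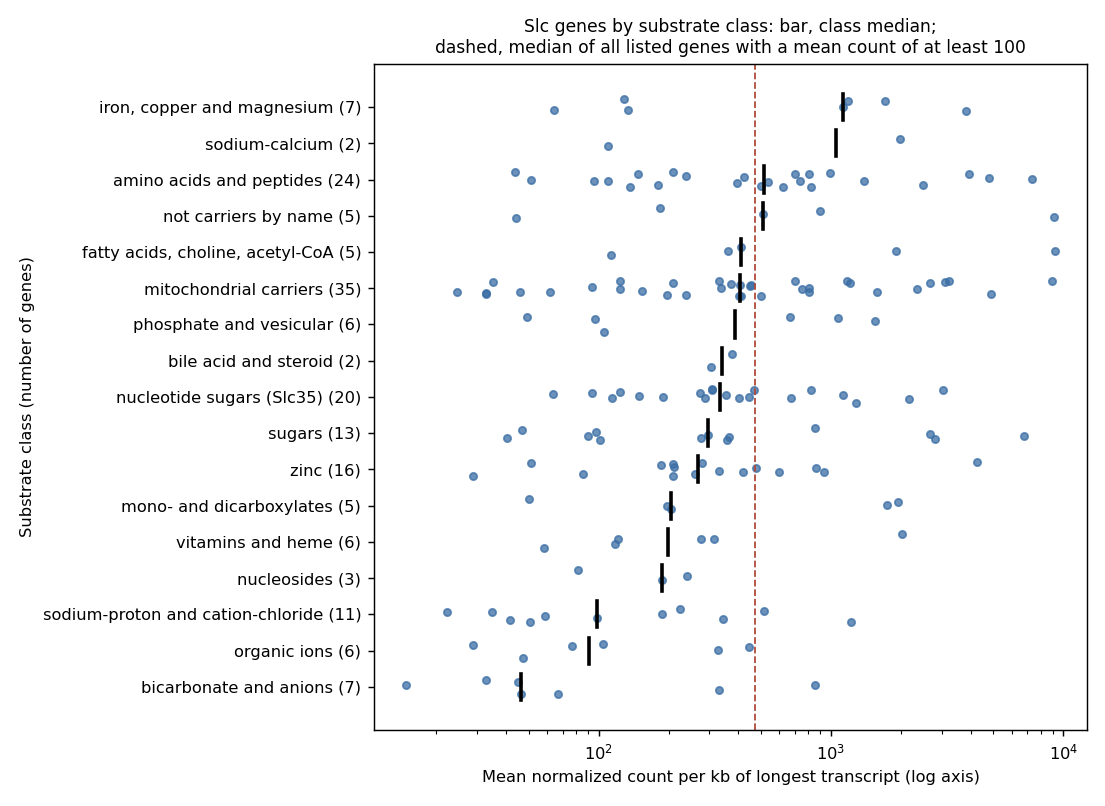
Level of each of the 173 Slc genes in mean normalized counts per kb of longest transcript (log axis), grouped by substrate class with the number of genes in parentheses; each point is a gene, black bars are class medians and the dashed line is the median of all genes at the same minimum (470 per kb). Most classes span more than a 10-fold range, and the class medians run from 46.3 per kb for bicarbonate and anions to 1129 per kb for iron, copper and magnesium.

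The 10 highest genes covered fatty acids, energy exchange across the mitochondrial membrane, amino acids, glucose, zinc and copper. Slc27a4 (FATP4, which takes up long-chain fatty acids and joins them to coenzyme A), on chromosome 2 from 29802634 to 29817522, was highest at 9209 per kb of longest transcript, above 96.1% of all genes at the minimum. The scaffold gene Slc9a3r1 followed at 9113, then Slc25a5 at 8978, Slc3a2 at 7360, Slc2a3 at 6774, Slc25a39 at 4886, Slc7a5 at 4767, Slc39a7 at 4256, Slc6a6 at 3944 and Slc31a2 at 3800 per kb. All 10 exceeded 3694 per kb, the 90% point of the genes at the minimum, and all lay below the neutrophil markers above. With coding length 8 of the 10 remained among the 10 highest, and with the median transcript length 6 did. The first rank changed under both, to Slc2a3, which stood at 28641 per kb of coding length against 19354 for Slc27a4, and at 73798 against 15634 per kb of median transcript length. Of the other symbols that name no carrier, Slc9a3r2 stood at 899, Slc4a1ap at 510, Slc7a6os at 183 and Slc2a4rg-ps at 44.2 per kb. Ranks next to each other in this order are not shown to differ, since the means carry no spread.

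**Figure D2:**
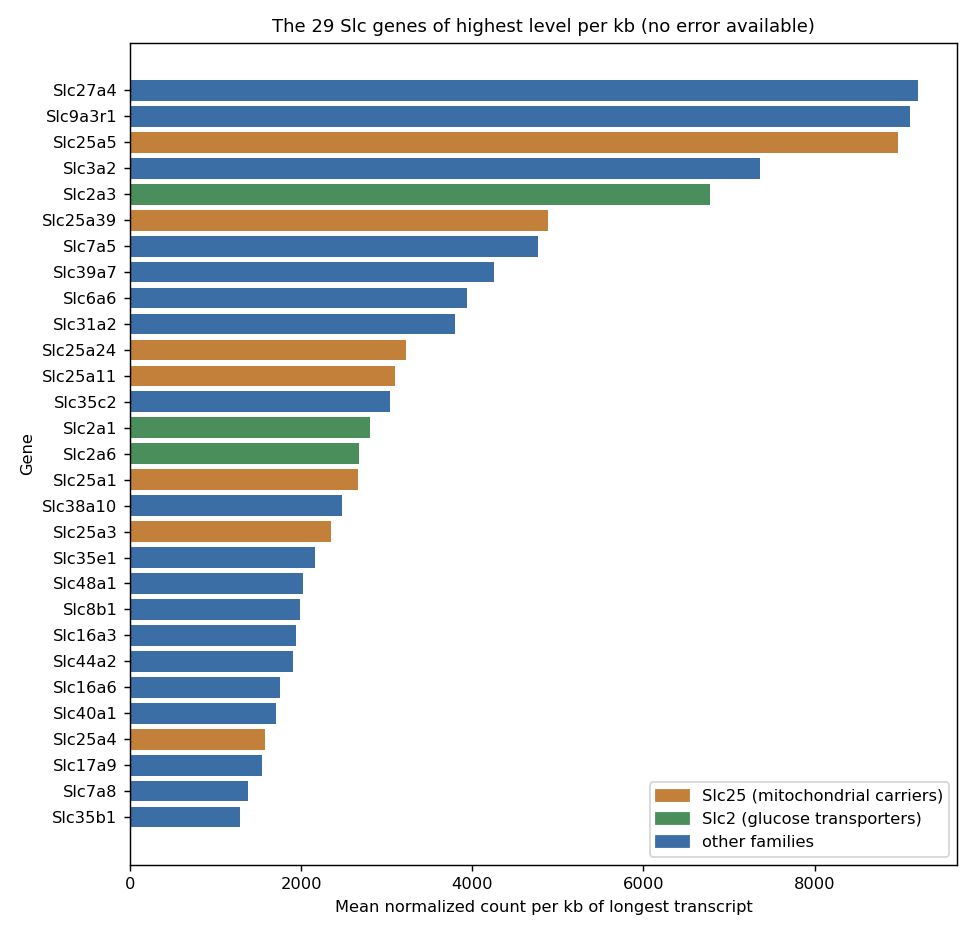
The 29 Slc genes of highest level, as bars of the mean normalized count per kb of longest transcript (axis from 0), with Slc25 genes, Slc2 genes and other families in separate colours. Levels fall from 9209 per kb for Slc27a4 to 1286 per kb for Slc35b1, and 7 of the 29 bars are mitochondrial carriers.

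Glucose enters cells by the Slc2 family, whose members carry sugars down their gradient. Of 12 annotated protein-coding Slc2 genes, 5 were listed and all 5 reached the minimum, with a median of 2677 per kb. Slc2a3 (GLUT3, a high-affinity glucose transporter), on chromosome 6 from 122727809 to 122801640, stood highest at 6774 per kb and held 53.6% of the summed level of the family. With a mean normalized count of 42360 it was also the most counted of the 173 genes. Slc2a1 (GLUT1, the widely expressed glucose transporter) stood at 2799 per kb, and the ratio of Slc2a3 to Slc2a1 was 2.42 by longest transcript, 4.63 by coding length and 5.64 by median transcript length. Slc2a6 (GLUT6, found on intracellular membranes) was close to Slc2a1 by longest transcript, at 2677 per kb, but by median transcript length it stood at 3606 against 13075 per kb. The remaining members were lower, with Slc2a9, a urate transporter, at 295 and Slc2a8 (GLUT8) at 97.6 per kb. 

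Sugar phosphates and other sugars are handled by smaller families. All 4 annotated Slc37 genes were listed and reached the minimum. Slc37a4, which carries glucose 6-phosphate into the endoplasmic reticulum and whose loss causes a glycogen storage disease with neutropenia, stood at 90.1 per kb. Slc37a2 stood at 363, Slc37a1 at 277 and Slc37a3 at 46.8 per kb, so that Slc37a2 exceeded Slc37a4 by 4.03 to 9.08 times over the 3 lengths used. Slc50a1, the mammalian member of the SWEET sugar transporters, stood at 854 per kb. Slc45a4 stood at 357 and Slc45a3 at 102 per kb. The sodium-coupled Slc5 family had 1 gene at the minimum, Slc5a6, at 40.3 per kb, and this member carries the vitamins biotin and pantothenate rather than sugar.

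Lactate and other monocarboxylates cross the membrane by the Slc16 family. Slc16a3 (MCT4, which exports lactate from glycolytic cells) stood at 1940 per kb and Slc16a1 (MCT1, a transporter of higher affinity for lactate) at 204 per kb. Their ratio was 9.51 by longest transcript and 9.77 by coding length, and 42.3 by median transcript length. Slc16a6 (MCT7) stood at 1748 per kb, below Slc16a3 also by coding length, at 4050 against 5964 per kb. By median transcript length the order turned, with Slc16a6 at 13458 and Slc16a3 at 8629 per kb. For both genes that length is shorter than the coding length, and their order depends on the length used. Exons of Slc16a6 overlap those of listed neighbours, Amz2 and Arsg. Slc16a10, a transporter of aromatic amino acids, stood at 197 and Slc16a13 at 50.3 per kb. Glycoproteins that bring some of these transporters to the surface, Bsg (basigin) and Emb (embigin), stood at 10486 and 13891 per kb. By longest transcript both were higher than any Slc16 gene, and their levels by the other lengths are not given.

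Mitochondrial carriers of the Slc25 family sit in the inner membrane and exchange nucleotides, phosphate, keto acids, amino acids and cofactors with the cytosol. They were the most numerous family, with 35 genes at the minimum of 39 listed and 47 annotated, and held 24.5% of the summed level per kb of the 173 genes. Their median was 407 per kb, and 14 stood above the median of all genes at the minimum, 470 per kb. The order of these medians turned with coding length, where the Slc25 genes stood at 1263 and all genes at the minimum at 1148 per kb. Slc25a5 (ANT2, which exchanges ADP for ATP), on the X chromosome from 36795651 to 36798807, stood at 8978 per kb, and Slc25a4 (ANT1, its counterpart of heart and muscle) at 1581. Slc25a5 exceeded Slc25a4 by 3.66 to 5.92 times over the 3 lengths. Slc25a3, the phosphate carrier, stood at 2347 per kb. Slc25a5 alone held 24.1% of the summed level of the family.

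Other Slc25 members carry intermediates of the citric acid cycle and of the redox shuttles. Slc25a11, the oxoglutarate and malate carrier, stood at 3096 per kb, although its exons overlap those of Rnf167, whose mean normalized count was similar (5426 against 5297). Slc25a1, which exports citrate for lipid synthesis, stood at 2669 and Slc25a10, the dicarboxylate carrier, at 453 per kb. The aspartate and glutamate carriers Slc25a12 (aralar) and Slc25a13 (citrin) stood at 404 and 196 per kb, and Slc25a12 was higher by 2.06 to 4.18 times over the 3 lengths. Slc25a20, which admits acylcarnitines for fatty acid oxidation, stood at 699 per kb. Slc25a24, a calcium-regulated carrier of ATP-Mg and phosphate, was far higher at 3225 per kb than its relatives Slc25a23 at 447 and Slc25a25 at 209.

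Carriers tied to iron, heme and glutathione formed another part of the family. Slc25a39, which brings glutathione into mitochondria, stood at 4886 per kb, second in the family by longest transcript but behind Slc25a5, Slc25a3 and Slc25a24 by coding length, whereas its relative Slc25a40 stood at 35.2. Slc25a37 (mitoferrin 1) stood at 807 and Slc25a28 (mitoferrin 2) at 409 per kb, both importers of iron, with a ratio between 1.17 and 3.38 over the 3 lengths. Slc25a38, a glycine carrier needed for heme synthesis, stood at 752 per kb. Of the cofactor carriers, Slc25a51 (NAD) stood at 502, Slc25a26 (S-adenosylmethionine) at 237, Slc25a32 (folate and FAD) at 93.7 and Slc25a42 (coenzyme A) at 32.6 per kb. Slc25a44, a carrier of branched-chain amino acids, stood at 1170, while Slc25a22 (glutamate) and Slc25a15 (ornithine) were at 45.8 and 32.7 per kb. Slc25a17 of peroxisomes and Slc25a46 of the outer mitochondrial membrane stood at 802 and 407 per kb. Slc25a45 stood at 1205 per kb, and the pyrimidine nucleotide carriers Slc25a33 and Slc25a36 at 373 and 329. Slc25a16, Slc25a29 and Slc25a30 stood at 338, 153 and 124 per kb. In all, 9 members exceeded 1000 per kb and 7 were under 100.

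**Figure D3:**
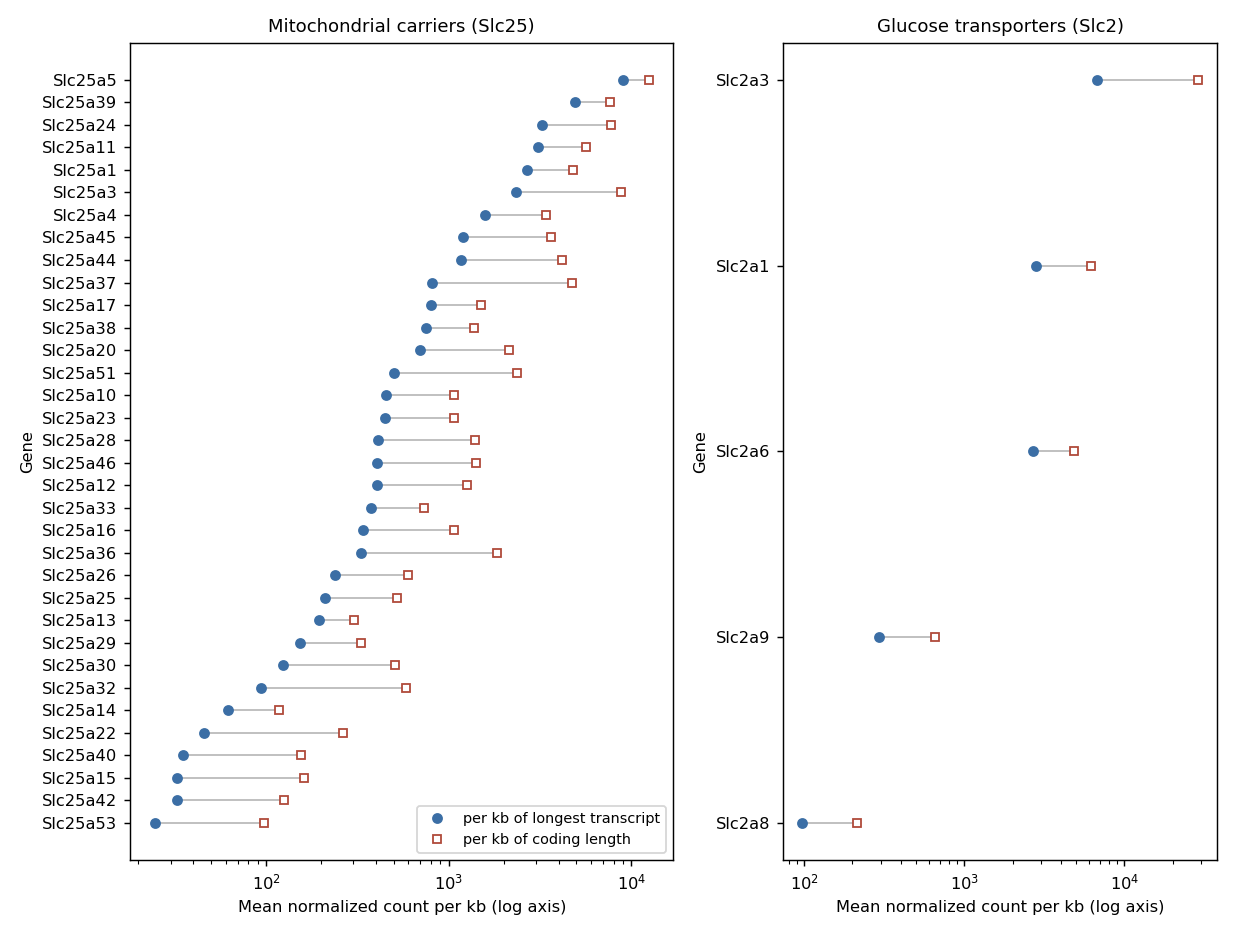
Levels of 34 of the 35 Slc25 genes (left) and the 5 Slc2 genes (right) on log axes, each gene drawn as a filled circle for the mean normalized count per kb of longest transcript and an open square for that per kb of coding length. Coding length raises every gene shown, since it leaves out the untranslated parts, and Slc25a5 and Slc2a3 are highest in their families by either length.

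Other mitochondrial carriers have names outside the Slc pattern and were not counted among the 173. Ucp2, an uncoupling protein of the Slc25 family, was above all 173 genes at 14937 per kb. The subunits of the pyruvate carrier, Mpc1 and Mpc2, stood at 3139 and 966 per kb, and Mtch1 and Mtch2 at 3871 and 977. Ucp1 and Ucp3 had no row. These genes belong to a list of 35 carriers, partner proteins and related genes named otherwise, of which 31 were listed and 30 reached the minimum, with a median of 1333 per kb. The list also holds genes that are no carriers, among them Txnip, a regulator of glucose uptake, at 12000 per kb, the transcription factor Hif1a at 4091, and the iron stores Fth1 and Ftl1, its highest genes, at 109545 and 465105 per kb.

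Amino acid and peptide transporters, classed by family number and not by the substrate of each gene, numbered 24 genes. Their median was 518 per kb, and 13 of them stood above the median of all genes at the minimum. By coding length the class median was 965 per kb, below the 1148 per kb of all genes at the minimum. The heavy chain Slc3a2 (CD98), on chromosome 19 from 8706882 to 8723369, stood at 7360 per kb. It pairs with light chains of the Slc7 family, of which Slc7a5 (LAT1, for large neutral amino acids) stood at 4767, Slc7a8 (LAT2) at 1383, Slc7a11 (xCT, which takes up cystine for glutathione synthesis in exchange for glutamate) at 822, Slc7a7 (y+LAT1) at 148 and Slc7a6 (y+LAT2) at 95.3 per kb. Slc3a2 and Slc7a5 could not be ranked, because their ratio was 1.54 by longest transcript and 0.940 by median transcript length. Slc7a11 has the long transcript of 9223 bases, and per kb of coding length it stood at 5033, above Slc7a8 at 3546. Exons of Slc7a7 overlap those of Oxa1l on the opposite strand, whose mean normalized count was higher. Slc7a1 (CAT1, for arginine and lysine) stood at 239 per kb.

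The Slc6 transporters use sodium and chloride gradients and are best known for neurotransmitters. Slc6a6, the taurine transporter, stood at 3944 per kb and was the third most counted of the 173 genes with a mean of 24396. Taurine is abundant in neutrophils, where it reacts with hypochlorous acid from myeloperoxidase. Slc6a13 (GAT2) and Slc6a12 (BGT1) lie side by side on chromosome 6, with 5343 bases between them, and stood at 739 and 110 per kb, a ratio of 4.98 to 6.74 over the 3 lengths. Slc6a9, a glycine transporter, stood at 51.1 per kb. Of 21 annotated Slc6 genes, these 4 reached the minimum.

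Sodium-coupled uptake of neutral amino acids runs through Slc38 and Slc1. Slc38a10 stood at 2483 per kb. Slc38a2 (SNAT2) stood at 987 and Slc38a1 (SNAT1) at 623 per kb, neighbours on chromosome 15 separated by 44479 bases. The ratio of Slc38a2 to Slc38a1 was 1.58 by longest transcript and 0.921 by median transcript length, so their order is not settled. Slc1a5 (ASCT2, a glutamine transporter) stood at 498 per kb and was the single Slc1 gene at the minimum of 3 listed. Transporters of the lysosome were present as well. Slc36a1 (PAT1) stood at 703, Slc38a7 at 422, Slc15a4 at 393, Slc15a3 at 209 and Slc38a9, which signals lysosomal arginine to mTORC1, at 43.8 per kb. Slc15a2 (PEPT2, a peptide transporter) stood at 179 and Slc38a6 at 136 per kb. The uniporter genes Slc43a3 and Slc43a2, placed in this class by family number only, stood at 805 and 537 per kb.

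Transporters of iron, copper and magnesium had a median of 1129 per kb over 7 genes. It was the highest class median by longest transcript and by coding length, but by median transcript length, at 1191 per kb, it lay below sodium-calcium exchangers at 1898 and amino acids and peptides at 1458. Slc11a1 (NRAMP1), which pumps divalent metals out of the phagosome, stood at 1184 per kb, whereas Slc11a2 (DMT1), its relative in iron uptake, stood at 64.0. The ratio was 11.5 to 18.5 over the 3 lengths. Slc40a1 (ferroportin, which exports iron from cells), on chromosome 1 from 45908068 to 45926523, stood at 1709 per kb, and Tfrc, the transferrin receptor, which is no solute carrier, at 1333. Slc48a1, a transporter of heme, stood at 2027 per kb, though its exons overlap those of Hdac7. The copper transporters Slc31a2 (CTR2) and Slc31a1 (CTR1) are neighbours on chromosome 4, separated by 62316 bases, and stood at 3800 and 1129 per kb, with a ratio of 2.02 to 6.69 over the 3 lengths. The magnesium transporters Slc41a1 and Slc41a3 stood at 134 and 128 per kb.

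Zinc is moved into the cytosol by Slc39 proteins (ZIP) and out of it by Slc30 proteins (ZnT). There were 11 Slc39 and 5 Slc30 genes, with medians of 211 and 331 per kb. Slc39a7 (ZIP7, which releases zinc from the endoplasmic reticulum) stood at 4256 per kb and held 56.2% of the Slc39 sum. Slc39a1 stood next at 934, Slc39a11 at 860 and Slc39a6 at 477 per kb, and Slc39a1 was 0.108 to 0.313 times the level of Slc39a7 over the 3 lengths. The lowest were Slc39a14 at 85.5, Slc39a2 at 51.2 and Slc39a10 at 28.8 per kb. The Slc30 genes were closer together, from 599 for Slc30a5 to 208 for Slc30a7, which load zinc into the secretory pathway, with Slc30a1, the exporter of the plasma membrane, at 331 per kb. Slc30a6 and Slc30a9 stood at 259 and 420, and Slc39a3 and Slc39a4 at 186 and 209 per kb. For Slc39a13, Slc39a9 and Slc39a2 an overlapping gene had a higher mean normalized count, among them Psmc3 with 8555 against 520 for Slc39a13.

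Slc35 carriers bring nucleotide sugars and the sulfate donor PAPS into the Golgi and endoplasmic reticulum. This family had 20 genes at the minimum of 27 annotated, with a median of 332 per kb, and 18 of the 20 exceeded 100 per kb. Slc35c2 stood at 3034, Slc35e1 at 2157, Slc35b1 at 1286 and Slc35a4 at 1130 per kb. Slc35c1, the GDP-fucose transporter that fucosylated selectin ligands of neutrophils require, stood at 676 per kb. Slc35b2 and Slc35b3, both for PAPS, stood at 824 and 468 per kb. Slc35a2 (UDP-galactose) stood at 354, Slc35a3 (UDP-N-acetylglucosamine) at 287 and Slc35a1 (CMP-sialic acid) at 124 per kb. The other 8 members at middle levels ran from 443 per kb for Slc35f5 to 115 for Slc35e2, with Slc35d2, Slc35f6, Slc35a5, Slc35b4, Slc35d1 and Slc35e4 between them. The lowest members were Slc35e3 at 93.9 and Slc35g1 at 63.5 per kb.

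The sodium-proton exchangers and cation-chloride cotransporters had a median of 98.7 per kb over 11 genes, and 2 of them stood above the median of all genes at the minimum. Slc12a7 (KCC4, which couples potassium and chloride export) stood at 34.8 per kb and Slc12a2 (NKCC1) at 22.2. Slc12a9 stood at 342, Slc12a4 (KCC1) at 58.5 and Slc12a5 at 98.7 per kb. Slc9a8 of the Golgi stood at 223, Slc9a9 at 50.9 and Slc9a5 at 41.7 per kb.

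Bicarbonate and anion carriers had the lowest median, 46.3 per kb over 7 genes. Slc4a2 (AE2, a chloride-bicarbonate exchanger) stood at 852 per kb and exceeded Slc4a7 by 9.05 to 51.0 times over the 3 lengths. Slc26a9 stood at 330, Slc26a11 at 67.0, Slc26a2, a sulfate transporter, at 46.3 and Slc26a6 at 32.7 per kb. Slc8b1 (NCLX, which exports calcium from mitochondria in exchange for sodium) stood at 1988 per kb, whereas Slc24a3, an exchanger of the plasma membrane, stood at 110. The phosphate importers Slc20a1 (PiT-1) and Slc20a2 (PiT-2) stood at 1075 and 105 per kb, with a ratio of 2.62 to 10.2 over the 3 lengths, and Xpr1, the phosphate exporter, stood at 799.

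Vesicular transporters fill or empty secretory vesicles and lysosomes. Slc17a9 (VNUT, which loads ATP into vesicles) stood at 1541 and Slc17a5 (sialin, which exports sialic acid from lysosomes) at 665 per kb. The vesicular monoamine transporters Slc18a2 and Slc18a1 stood at 96.6 and 49.2 per kb. Of 25 annotated Slc22 genes, which carry organic ions, 6 reached the minimum. By longest transcript all 6 lay below the median of all genes there, 470 per kb. By median transcript length Slc22a4 did not, at 1476 against 1100 per kb. Slc22a4 (OCTN1, a transporter of ergothioneine) stood at 442 per kb and its neighbour Slc22a5 (OCTN2, of carnitine) at 47.3, a ratio of 6.96 to 9.35 over the 3 lengths. Slc22a15 stood at 327 per kb. By coding length it was above Slc22a4, at 1316 against 603 per kb, and above the median of all genes at the minimum, 1148. Lower were Slc22a3 (OCT3) at 104, Slc22a20 at 77.2 and Slc22a23 at 28.7 per kb.

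Lipid precursors, nucleosides and vitamins completed the set. Slc27a4 held 98.8% of the level of the Slc27 genes at the minimum, and exceeded Slc27a1 (FATP1), at 113 per kb, by 81.8 to 108 times over the 3 lengths. Slc44a2, a choline-like transporter that in humans carries a neutrophil alloantigen, stood at 1900 per kb, and Slc44a1, a choline transporter, at 360. Slc33a1, which brings acetyl-CoA into the endoplasmic reticulum, stood at 410 per kb. The equilibrative nucleoside transporters Slc29a1 of the plasma membrane and Slc29a3 of lysosomes stood at 240 and 188 per kb, and their order turned with coding length, where Slc29a3 was 1.79 times Slc29a1. Slc28a2, a concentrative nucleoside transporter, stood at 81.2 per kb. Slc23a2, for ascorbate, stood at 315, Slc19a2, for thiamine, at 277, Slc52a2 and Slc52a3, for riboflavin, at 121 and 118, and Slc19a1, for reduced folate, at 58.5 per kb. Slc10a3 and Slc10a7 stood at 375 and 304 per kb.

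**Figure D4:**
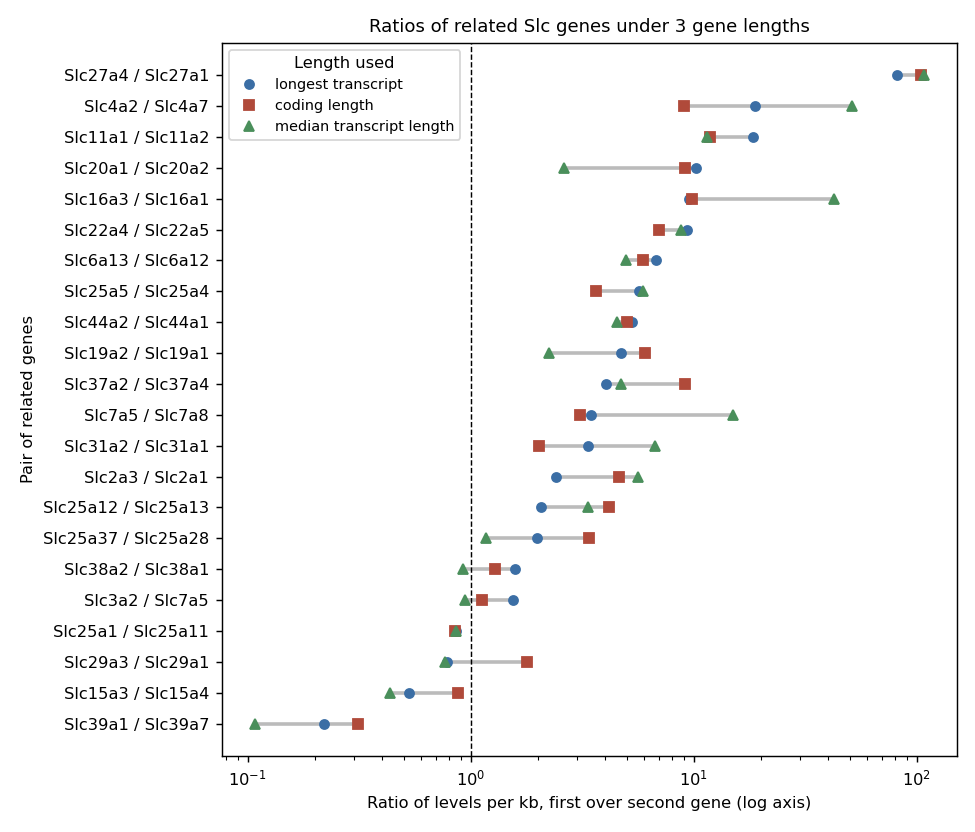
Ratio of the levels per kb of 22 pairs of related Slc genes (log axis), with circles for the longest transcript, squares for coding length, triangles for median transcript length and a grey line from the lowest to the highest; the dashed line marks equal levels. For Slc3a2 and Slc7a5, Slc38a2 and Slc38a1, and Slc29a3 and Slc29a1 the ratio falls on both sides of 1, and for the other pairs it stays on 1 side.

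The genes lay on 20 chromosomes, from 19 on chromosome 2 and 17 on chromosome 11 to 2 on chromosome 7. There were 10 pairs of neighbours less than 100 kb apart with no other member between them. The members of 4 of these pairs belong to the same family (Slc6a13 and Slc6a12, Slc22a5 and Slc22a4, Slc31a2 and Slc31a1, Slc38a1 and Slc38a2), and in each the members differed by 1.58 to 9.35 times per kb. Exons of 52 genes overlapped an exon of another annotated gene, in 44 cases one on the opposite strand. For 19 the overlapping gene was itself listed, and for 7 it had the higher mean normalized count (Slc25a11, Slc39a9, Slc39a13, Slc7a7, Slc20a2, Slc39a2 and Slc5a6). Part of the level of these 7 genes may be reads of the neighbour, which was not tested. Whether reads were counted by strand is not given in the sources used here, and for Slc39a2 the overlapping gene, Mettl17, lies on the same strand, where counting by strand would not separate them. The median longest transcript of the 173 genes was 3588 bases, against 3378 for all genes at the minimum, and the median coding length was 1479 against 1383 bases.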

How the data were processed

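Reads of 10 polyA-selected mRNA libraries had been trimmed with cutadapt 4.4, aligned and quantified on mm10 with STAR 2.7.10b, and modelled with RUVSeq covariates and DESeq2 1.26.0 by the authors, per the labels and the methods. The annotation, the strand setting and the filter on genes are not given in the sources used here. The deposited signal (baseMean) is the mean over libraries of counts that the authors divided by size factors; it was identical in the 4 tables. The other columns hold the authors' own comparisons (fold changes, standard errors, statistics and p-values) and were not used. No test was therefore run, and replicate error and depth per library are unknown.

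Levels were divided by the longest transcript of each gene in GENCODE M21, which matched 12023 of 13091 symbols. Coding length and median transcript length were alternatives. The median transcript can be shorter than the coding length, as for Slc2a3, Slc7a5, Slc16a6 and Slc4a2. For such genes it gives the highest of the 3 levels. Classes followed family numbers. Any member could be named, and the values of some are not reported here. The members and lists were chosen with earlier results of these data known. Simulated counts, drawn from the same lengths they were then divided by, checked only the arithmetic of the division. They cannot show which length applies to a gene. Python 3.11.15, numpy 2.4.6, pandas 2.3.3, scipy 1.17.1 and matplotlib 3.10.9 were used.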

Additional observations from a re-analysis of the deposited data

How the results depend on the processing

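The number of Slc genes moved from 173 to 187 with a minimum of 50, to 150 with a minimum of 200, to 206 with none, and to 182 with carriers named otherwise. The pseudogene Slc2a4rg-ps has no coding length and is left out of medians by that length. The median level of the 173 genes, 315 per kb of longest transcript, was 795 per kb of coding length and 795 per kb of median transcript length. That of the Slc25 genes went from 407 to 1263 and 1079, and that of the Slc2 genes from 2677 to 4867 and 3606. Every length other than the longest transcript is shorter or equal, so these values rise by construction. Settings added after the data were seen gave 168 genes and a median of 312 per kb without the symbols that name no carrier, and 307 per kb without genes whose exons overlap another gene. The share of all mean normalized counts, 0.913%, was 1.29% without the 100 highest genes in the total and 0.915% without genes under the minimum. No paired analysis was possible because the values used hold no column per library, and no library could be left out for the same reason. Order among genes of similar level is limited by the missing spread.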
